A study of Mus musculus with 8 samples.

Results

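Complement genes were examined in the myocardium of mice with and without myocardial infarction (MI), as 9 genes selected by their symbols in the deposited gene table: C1qa, C1qb, C1qc, C1ra, C2, C3, C4b, Cfb and Serping1. The table held 33249 genes, of which the 14028 averaging 0.5 FPKM or more (read fragments scaled to transcript length and library size) were tested, all 9 complement genes among them. RNA of 8 libraries was sequenced, with 2 for each of the labels fl/fl-Sham and CKO-Sham and 2 for each of fl/fl-MI-D42 and CKO-MI-D42, to ask how loss of the mechanosensitive channel Piezo1 from cardiomyocytes bears on the infarcted heart. CKO stands for Piezo1 Cko mice, in which both Piezo1 alleles are floxed and a tamoxifen-inducible Cre, fused to a mutated estrogen receptor and driven by the cardiomyocyte promoter Myh6, is carried as a transgene. The fl/fl animals were littermates with the same floxed alleles and no Cre, and per the study's methods tamoxifen was given to delete the gene. MI was made by tying off the left anterior descending artery, and hearts labelled MI were taken at day 42. Sham hearts had the operation without ligation, and their labels give no day. The labels give no age, sex or strain, though the study's methods state the ages at tamoxifen and at surgery. They do not say whether the 2 libraries of a group came from separate animals, so the p-values measure only the spread between these libraries.

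Complement is a cascade of proteases and binding proteins that coats targets, attracts leukocytes and can lyse membranes. In the classical pathway the C1q molecule, built from A, B and C chains, carries the proteases C1r and C1s, which cleave C4 and C2 to form a convertase that splits C3. The alternative pathway builds its own C3 convertase with factor B, and C1 inhibitor (Serping1) blocks C1r and C1s. Most plasma complement is made by the liver, while tissue macrophages are the usual source of C1q and fibroblasts and endothelial cells also make several components.

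C3 passed the test of MI against sham and the C1q chains did not, and the promoters of C3 and C1qb are shown so that their sequences can be compared. Of the 9 genes, 4, C1qb, C1qc, C1ra and C3, had a promoter in the RefSeq table used (build GRCm38.p6). The 250 bases before the annotated start of C3 (chr17:57228137-57228386, minus strand) and of C1qb (chr4:136886201-136886450, minus strand) read, 5′ to 3′ along the gene, with motif matches in capitals:
C3: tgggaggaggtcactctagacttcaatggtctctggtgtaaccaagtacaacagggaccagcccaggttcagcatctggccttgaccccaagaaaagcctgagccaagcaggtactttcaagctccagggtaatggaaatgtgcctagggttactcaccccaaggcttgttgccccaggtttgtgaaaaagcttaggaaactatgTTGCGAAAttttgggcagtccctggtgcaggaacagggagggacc
C1qb: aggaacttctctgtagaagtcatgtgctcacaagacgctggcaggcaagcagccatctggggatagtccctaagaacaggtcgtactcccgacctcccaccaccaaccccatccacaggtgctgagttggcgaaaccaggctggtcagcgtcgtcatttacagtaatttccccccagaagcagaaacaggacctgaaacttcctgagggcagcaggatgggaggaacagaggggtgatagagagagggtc
The motifs searched on both strands were GAAANNGAA (a core bound by interferon regulatory factors), TTCNNNGAA (bound by STAT proteins), TTGCNNAA (bound by C/EBP proteins), GAGGAAG (bound by PU.1) and the NF-kB motif, with no overlap between matches. C3 held 1 match, to TTGCNNAA, whose first base lay at position -45 from the start. A match to these letters was present in 9.56% of the 32851 windows of this length in the table. C1qb and C1ra held no match to any of the 5 motifs in this window. The window of C1ra (chr6:124512371-124512620, plus strand) was set by the RefSeq start. The deposited gene starts at 124512405, so most of that window lay inside it. C1qc, not printed, held a match to GAGGAAG on the opposite strand, at position -194 from the start, and one to the NF-kB motif at position -41. Matches to these were present in 10.61% and 7.25% of all windows. The window of C1qc (chr4:136892915-136893164, minus strand) also overlapped the deposited gene, which reaches 136893065. Its NF-kB match lay inside the deposited gene. With windows set by the RefSeq starts, the matches across these 4 genes did not divide those that passed the test from those that did not. Windows set by the deposited starts were not searched.

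The libraries differed in mitochondrial share and in how they matched their labels. Counts summed to between 73821747 and 88117573 per library, and mitochondrially encoded genes took 43.1% to 46.4% of them in sham and 19.9% to 24.2% in MI libraries. Piezo1 was not lower in the libraries labelled CKO. It lay at 72.2 and 82.0 CPM (read counts per library total scaled by the trimmed mean of M-values, TMM) in fl/fl-Sham against 76.7 and 88.3 in CKO-Sham. After MI it lay at 53.5 and 64.8 in fl/fl-MI-D42 against 56.3 and 64.6 in CKO-MI-D42. These are mRNA levels of whole myocardium, while the paper checked the deletion as protein in isolated cardiomyocytes. Esr1, whose sequence is part of the Cre transgene, reached 331 CPM in fl/fl-MI-D42 2, 707 and 402 in CKO-MI-D42 1 and 2, and lay between 5.52 and 8.36 in the other 5 libraries, those labelled CKO-Sham included. The library labelled fl/fl-MI-D42 2 also held 3834 CPM of the atrial gene Bmp10, against at most 18.8 in any other. Genotype names are therefore used only as the labels give them, and values of the 9 genes between labels after MI are also given without this library. Summed over 8 hepatocyte markers, the level was 2.45 to 4.29 CPM in sham and 0.47 to 2.64 in MI libraries, with albumin (Alb) at most 2.57 CPM. Cardiomyocyte markers summed to 31545 to 36598 CPM in sham and 17481 to 41579 in MI libraries, and endothelial markers, 7 of 8 of which fell with MI (against 18.3% of all tested genes), to 1772 to 2167 and 643 to 1058.

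MI hearts held more transcript of 6 of the 9 complement genes than sham hearts, averaged over the genotype labels. C1ra, C2, C3, C4b, Cfb and Serping1 rose, by log2 fold changes of 1.05 to 2.14, at an adjusted p under 0.05 in edgeR's quasi-likelihood test with Benjamini-Hochberg adjustment over all 14028 genes. Of all tested genes 22.0% rose by the same criterion, and the median log2 fold change was 1.44 over the 9 genes against 0.03 over all tested genes. In 5 of the 9, C1ra, C2, C3, Cfb and Serping1, every MI library lay above every sham library, against 20.9% of all tested genes. Without the library labelled fl/fl-MI-D42 2, 7 of the 9 rose, as did 26.9% of all tested genes. The C1q chains had positive log2 fold changes of 0.33, 0.63 and 0.42 that did not pass. In whole myocardium, fewer cells of a type and less RNA per cell cannot be told apart. Since counts were scaled by TMM, these changes are relative to the bulk of genes. Scaled to library totals alone, the median gene was 0.59 higher in MI on the log2 scale, 0.56 higher on log2(FPKM + 0.1), 0.41 on log2(FPKM + 1) and 0.92 on log2(TPM + 1).

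The C1q chains form the recognition molecule of the classical pathway, and their genes lie side by side on chromosome 4 of the deposited coordinates (identical to GENCODE M21 on GRCm38), C1qb at 136880129 to 136886187, C1qc at 136889804 to 136893065 and C1qa at 136895917 to 136898803, all on the minus strand. C1qa stood at 55.3 and 68.8 CPM in libraries 1 and 2 labelled fl/fl-Sham, 58.5 and 47.6 in those labelled CKO-Sham, 103 and 70.3 in fl/fl-MI-D42 and 38.7 and 82.1 in CKO-MI-D42. C1qb, the B chain, stood at 52.1 and 65.8 CPM in fl/fl-Sham, 51.6 and 43.6 in CKO-Sham, 127 and 84.3 in fl/fl-MI-D42 and 43.7 and 83.3 in CKO-MI-D42. C1qc, the C chain, stood at 48.0 and 58.2 CPM in fl/fl-Sham, 47.9 and 39.1 in CKO-Sham, 86.8 and 63.9 in fl/fl-MI-D42 and 33.1 and 76.7 in CKO-MI-D42. For each chain the library labelled CKO-MI-D42 1 lay within or under the sham range and the other 3 MI libraries lay above it, so the sham and MI groups overlapped. The log2 fold change with MI was 0.33 ± 0.25 for C1qa (SE, adjusted p = 0.327), 0.63 ± 0.24 for C1qb (adjusted p = 0.0708) and 0.42 ± 0.27 for C1qc (adjusted p = 0.242) in edgeR. These calls depended on the scale: with library totals alone the values were 0.92, 1.21 and 1.01 with adjusted p of 0.0343, 0.00906 and 0.0272, against the shift of 0.59 of the median gene. Without the library labelled CKO-MI-D42 2 the value of C1qa fell to -0.0044 and that of C1qc to 0.04, and without CKO-MI-D42 1 they were 0.53 (adjusted p = 0.0764) and 0.63 (adjusted p = 0.0352). C1qb passed in the fits without CKO-MI-D42 1 (adjusted p = 0.0265) or without fl/fl-MI-D42 2 (adjusted p = 0.0240), and in DESeq2 (adjusted p = 0.0290).

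**Figure D1:**
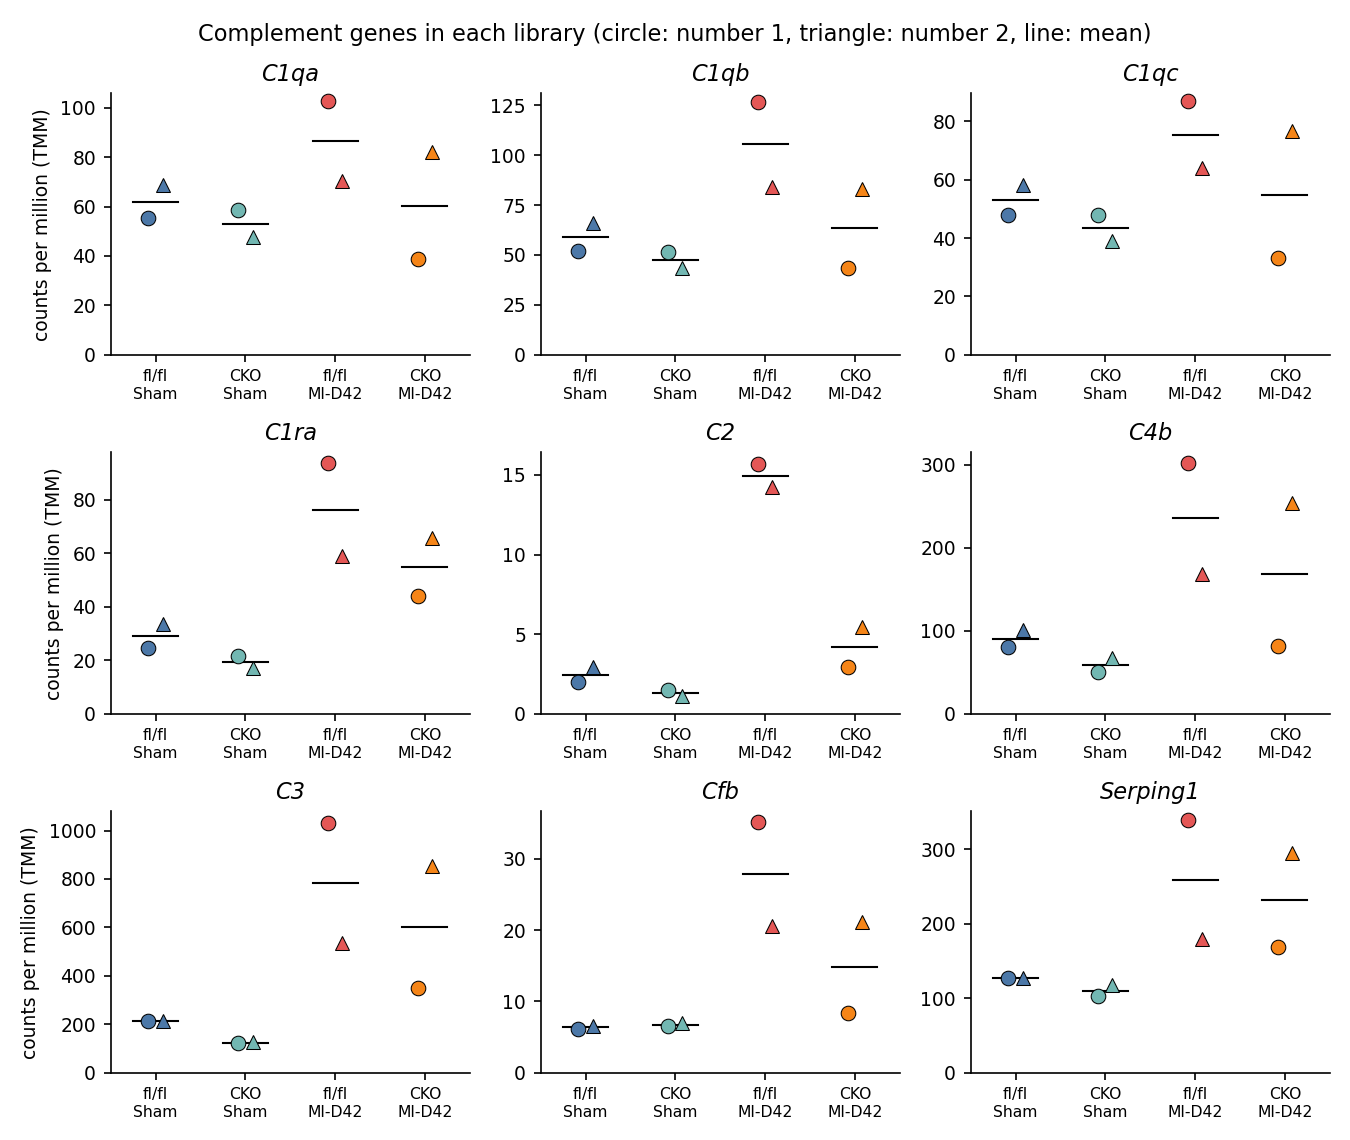
Each panel plots one complement gene, with CPM after TMM scaling on a linear y axis from 0 and the 4 groups on the x axis; circles and triangles are the libraries numbered 1 and 2 and lines the group means. The library labelled fl/fl-MI-D42 1 is the highest and CKO-MI-D42 1 the lowest MI library in all 9 panels, and C3 ranges from 121 CPM in sham to 1033 in MI.

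The 3 chains moved together from library to library. C1qa and C1qc, after each gene's log2 CPM was centred over the 8 libraries, differed by a root mean square of only 0.06, and C1qb differed by 0.17 from C1qa and by 0.16 from C1qc. Per length, the ratio of C1qa to C1qc FPKM stayed between 1.99 and 2.27 in all 8 libraries. The ratio of C1qb to C1qc FPKM was 1.91 to 2.004 in the sham libraries, 2.59 and 2.34 in fl/fl-MI-D42, and 2.35 and 1.93 in CKO-MI-D42. The B chain was thus relatively higher in 3 of the 4 MI libraries and within the sham range in the library labelled CKO-MI-D42 2. The longest coding transcripts of the chains shared no stretch of 50 bases with one another.

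Outside the complement lists, the genes whose centred log2 CPM lay closest to the mean of the C1q chains, among 5504 genes averaging 5 FPKM or more, were Mrc1, Cxcl16, Rnase4, Unc93b1 and Fcer1g. Their root mean square differences were 0.15 to 0.20 over 8 libraries, against a median of 0.54 over the genes compared. Mrc1, also one of the macrophage markers used here, encodes the mannose receptor and Fcer1g the shared Fc receptor gamma chain. Over 14 macrophage markers, 3 rose and 1 fell with MI, where 22.0% of all tested genes rose and 18.3% fell, with a median log2 fold change of 0.55, and their summed level was 240 to 293 CPM in sham and 209 to 463 in MI libraries. The mean log2 level of the chains exceeded that of the markers by 1.86 to 2.13 in sham and by 1.995 to 2.24 in MI libraries, and these ranges overlap. The part of macrophage number in the C1q values was not tested.

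**Figure D2:**
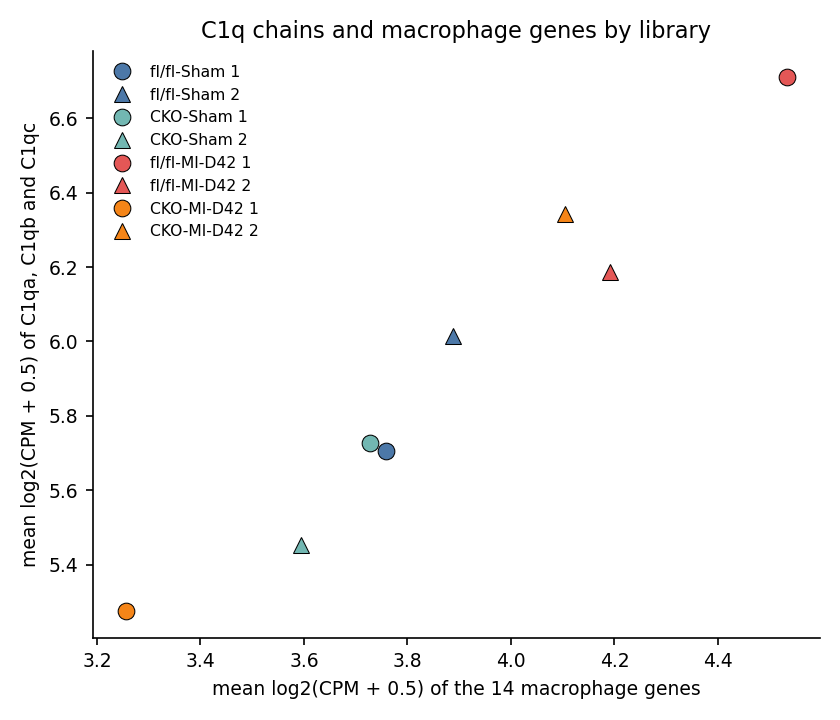
Each point is a library, with the mean log2(CPM + 0.5) of 14 macrophage markers on the x axis and that of C1qa, C1qb and C1qc on the y axis; colours are the groups and shapes the library numbers. The library labelled CKO-MI-D42 1 is lowest and fl/fl-MI-D42 1 highest on both axes, and the distance between the measures stays between 1.86 and 2.24.

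C1ra encodes the protease C1r, on chromosome 6 at 124512405 to 124523443, plus strand. It stood at 24.8 and 33.6 CPM in fl/fl-Sham, 21.7 and 17.3 in CKO-Sham, 93.8 and 58.8 in fl/fl-MI-D42 and 43.8 and 65.6 in CKO-MI-D42. Every MI library lay above every sham library. Its log2 fold change was 1.44 ± 0.22 (adjusted p = 0.00309, edgeR), a 2.71-fold rise, with 1.39 in the fl/fl and 1.49 in the CKO libraries. C1rb, a near copy, shares 26.3% of the 150-base windows of the C1ra transcript exactly, so the division of reads between them is uncertain. C1rb was at 1.32 to 2.18 CPM in sham and 1.64 to 6.91 in MI libraries, well under C1ra.

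C4b and C2 encode the substrates of the C1 proteases. C4b, on chromosome 17 at 34728380 to 34743882, minus strand, stood at 80.3 and 101 CPM in fl/fl-Sham, 50.8 and 67.7 in CKO-Sham, 302 and 169 in fl/fl-MI-D42 and 81.7 and 254 in CKO-MI-D42. The library labelled CKO-MI-D42 1 lay within the sham range and the other 3 MI libraries above it. Its log2 fold change was 1.44 ± 0.37 (adjusted p = 0.0208, edgeR). It missed the threshold when any one of the 4 sham libraries was left out, with log2 fold changes of 1.34 to 1.55. In these fits adjusted p rose for each of the 9 genes. C4a, whose transcript holds 8.26% of the 150-base windows of C4b, was at 0.62 to 2.88 CPM, and the division of reads between these copies is uncertain.

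C2, the protease of the classical convertase, lies beside Cfb on chromosome 17 at 34862604 to 34898265, minus strand, and had the lowest FPKM of the 9 genes, 0.22 to 0.61 in sham libraries. Its values were 2.01 and 2.91 CPM in fl/fl-Sham, 1.48 and 1.14 in CKO-Sham, 15.7 and 14.2 in fl/fl-MI-D42 and 2.93 and 5.45 in CKO-MI-D42. The lowest MI value was close to the highest sham value, 2.93 against 2.91 CPM. At 4 counts per read pair, these levels stand for 17 to 46 read pairs in sham and 62 to 415 in MI libraries. The log2 fold change was 2.14 ± 0.26 (adjusted p = 0.00152, edgeR). It was 2.60 ± 0.37 in the fl/fl libraries (adjusted p = 0.00751) and 1.68 ± 0.37 in the CKO libraries (adjusted p = 0.0200). Gm20547 and Zbtb12 overlap C2 in the annotation, and Gm20547 also overlaps Cfb, so reads of the shared stretches cannot be assigned to one gene with certainty.

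C3, the component on which all pathways converge, lies on chromosome 17 at 57203970 to 57228136 on the minus strand. It stood at 214 and 214 CPM in fl/fl-Sham, 121 and 126 in CKO-Sham, 1033 and 537 in fl/fl-MI-D42 and 349 and 856 in CKO-MI-D42. No MI library overlapped the sham range, and among MI libraries C3 varied 2.96-fold. The log2 fold change was 2.08 ± 0.33 (adjusted p = 0.00358, edgeR), or 4.23-fold. Both labels gave a call, with 1.87 ± 0.46 in the fl/fl libraries (adjusted p = 0.0338) and 2.28 ± 0.46 in the CKO libraries (adjusted p = 0.0165). Per length, C3 averaged 26.1 ± 8.21 FPKM in sham (SD, n = 4) and 164 ± 84.7 in MI libraries. Serping1 averaged 40.5 ± 4.15 and 128 ± 54.2 FPKM, and C1qa 44.1 ± 7.90 and 85.0 ± 36.7. Unlike the fold changes, these means are not scaled by TMM, and the median gene was also higher in MI on the FPKM scale. With TMM scaling C1qa was 1.26-fold higher in MI, which did not pass (adjusted p = 0.327, edgeR). In sham hearts the order by mean FPKM was C1qa, Serping1, C1qb, C3, C1qc, C4b, C1ra, Cfb and C2, and in MI hearts C3, Serping1, C1qb, C1qa, C4b, C1qc, C1ra, Cfb and C2. Neighbours that differed by less than the larger of their SDs were C1qa, Serping1 and C1qb, and C3 and C1qc, in sham hearts, and in MI hearts the first 4 genes in that order, and C4b, C1qc and C1ra.

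Cfb encodes factor B, the protease of the alternative C3 convertase, on chromosome 17 at 34856374 to 34862518, minus strand. Its values were 6.16 and 6.57 CPM in fl/fl-Sham, 6.5 and 6.94 in CKO-Sham, 35.2 and 20.6 in fl/fl-MI-D42 and 8.45 and 21.1 in CKO-MI-D42. The 4 sham libraries were close together, and each MI library lay above them. The log2 fold change was 1.64 ± 0.31 (adjusted p = 0.00702, edgeR). It was 2.13 ± 0.45 in the fl/fl libraries (adjusted p = 0.0224) and 1.14 ± 0.44 in the CKO libraries (adjusted p = 0.0972). The difference between those changes, -0.99 ± 0.61, did not pass the interaction test (adjusted p = 0.690).

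Serping1 encodes C1 inhibitor, on chromosome 2 at 84765387 to 84775444, minus strand. It stood at 127 and 127 CPM in fl/fl-Sham, 102 and 117 in CKO-Sham, 339 and 179 in fl/fl-MI-D42 and 169 and 295 in CKO-MI-D42. All MI libraries lay above all sham libraries. The log2 fold change was 1.05 ± 0.25 (adjusted p = 0.0153, edgeR). It missed the threshold without fl/fl-Sham 1, fl/fl-Sham 2 or CKO-Sham 1, with log2 fold changes of 1.05, 1.06 and 1.01. In these fits adjusted p rose for each of the 9 genes. Within labels the values were 1.03 in the fl/fl and 1.08 in the CKO libraries and did not pass (adjusted p = 0.0831 and 0.0642, edgeR). Most of its counts belonged to the main coding transcript, 95.5% to 98.9% per library. A short noncoding transcript of 2 exons took 0.83% to 1.17% of the counts in sham and 2.31% to 4.37% in MI libraries. The main transcript took at least 89.9% of the counts of each of the other genes except Cfb, whose counts were divided between 2 coding transcripts of nearly equal length.

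Within single genotype labels fewer genes passed. C1ra, C2, C3 and Cfb rose in the fl/fl libraries, 4 of 9, where 10.1% of all tested genes rose. C1ra, C2 and C3 rose in the CKO libraries, 3 of 9, where 12.8% of all tested genes did. Without the library labelled fl/fl-MI-D42 2, 7 of 9 rose in the fl/fl comparison and 6 of 9 in the CKO comparison, as did 15.8% and 21.6% of all tested genes. Leaving out either library labelled CKO-Sham left 1 call in the fl/fl comparison, where 4.73% and 4.7% of all genes then rose, and 0 in the CKO comparison, where 0.0214% and 2.25% did. Leaving out either library labelled fl/fl-Sham left 0 in the fl/fl comparison, where 0.128% and 0.121% of all genes then rose. Leaving out CKO-MI-D42 2 left 0 in the CKO comparison, where 5.92% did. These counts rest on a spread estimated from few libraries.

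**Figure D3:**
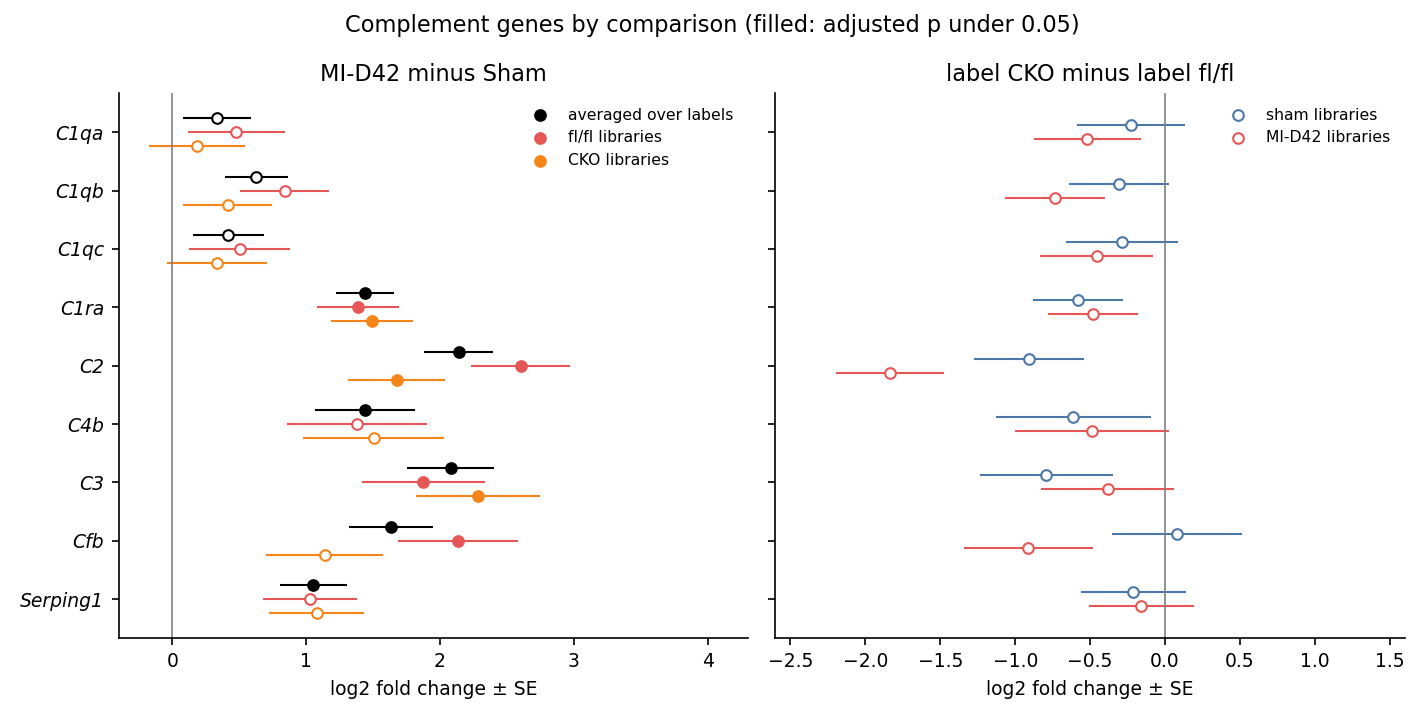
Points are log2 fold changes with standard errors for the 9 genes, on the left MI-D42 against sham and on the right the label CKO against the label fl/fl; colours mark the libraries compared and filled points an adjusted p under 0.05. On the left C2 and C3 have averaged values of 2.14 and 2.08, and on the right no point is filled, with C2 after MI at -1.83.

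The label CKO was compared with the label fl/fl in sham and in MI hearts, which is the question of the design. The sham comparison and the MI comparisons share libraries with those above, so their values are not independent. In sham hearts 0 of the 9 genes were called in edgeR, where 0.00713% of all tested genes were, and 1 of the 9, C2, was lower at an unadjusted p under 0.05, as were 2.0% of all tested genes. Of the 9 genes, 8 had lower values under the label CKO, and 7 did not overlap between the labels, against 23.8% of all tested genes that were lower without overlap. C3 was at 214 and 214 CPM against 121 and 126, a log2 fold change of -0.79 ± 0.45 (adjusted p = 0.9997, edgeR). C2 had the most negative value, -0.91 ± 0.36 (unadjusted p = 0.0411 in edgeR, adjusted p = 0.9997). Cfb was the exception, with 0.08 ± 0.43. In DESeq2 0 of the 9 genes were called, where 0.242% of all tested genes were. Fitted with only the 4 sham libraries, C3 was lower (-0.80, adjusted p = 0.0134, edgeR), as were 0.741% of all tested genes.

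After MI, 0 of the 9 genes were called between the labels in edgeR, as were 0.0% of all tested genes, although 1166 of these had an unadjusted p under 0.05. C2 alone of the 9 was lower at an unadjusted p under 0.05, as were 5.24% of all tested genes. All 9 values were negative, from -0.16 for Serping1 to -1.83 for C2, and 2 of the 9, C1qb and C2, did not overlap between the labels, against 15.5% of all tested genes that were lower without overlap. C2 was at 15.7 and 14.2 CPM under the label fl/fl and at 2.93 and 5.45 under the label CKO. Its log2 fold change was -1.83 ± 0.36 (unadjusted p = 0.00135, adjusted p = 0.454 in edgeR). The same difference passed in DESeq2 (adjusted p = 0.000584) and in the edgeR fit without fl/fl-MI-D42 1 (log2 fold change -1.75, adjusted p = 0.0367), where 0.998% and 6.04% of all tested genes were lower. It was -1.90 without fl/fl-MI-D42 2 (adjusted p = 0.143, edgeR). Mesothelial markers, 6 genes, summed to 104 and 204 CPM under the label fl/fl, 37.3 and 75.8 under the label CKO and 34.8 to 45.3 in sham libraries. Of these 6, 4 rose with MI, where 22.0% of all tested genes did, and 0 were called between the labels after MI. Their median log2 fold change between the labels after MI was -1.55. Other lists were lower too, with medians of -6.98 for atrial, -0.95 for interferon response, -0.89 for neutrophil and -0.54 for macrophage genes. Medians were -0.40 for adipocyte, 0.07 for fibroblast, 0.08 for endothelial and 0.15 for cardiomyocyte markers. These medians include the library labelled fl/fl-MI-D42 2 and are not given without it. The atrial median rested on that library. Atrial mean log2(CPM + 0.5) was 11.07 there, 4.38 in fl/fl-MI-D42 1, and 4.55 and 4.27 in CKO-MI-D42 1 and 2. Neutrophil genes summed to 7.33 and 15.3 CPM in fl/fl-MI-D42 1 and 2 and to 12.1 and 6.22 in CKO-MI-D42 1 and 2. Interferon genes summed to 321 and 208 against 134 and 146, and macrophage genes to 455 and 463 against 209 and 363. The part of any of these lists in the result for C2 was not tested. For C3 the difference was -0.38 ± 0.44 and for C4b -0.49 ± 0.52. Both values, and those of Serping1, turned positive when fl/fl-MI-D42 1 or CKO-MI-D42 1 was left out. Without the library labelled fl/fl-MI-D42 2 they were negative, at -0.78 for C3, -0.85 for C4b and -0.55 for Serping1. In that fit C1qa was at -0.76, C1qb at -0.997, C1qc at -0.66, C1ra at -0.78 and Cfb at -1.25, and 0 of the 9 genes were called, as were 0.192% of all tested genes.

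The MI libraries also differed within a label. In all 9 genes the library labelled fl/fl-MI-D42 1 was the highest and CKO-MI-D42 1 the lowest of the 4 MI libraries, an order that 7.11% of all tested genes had and that was picked out after the values were seen. The highest exceeded the lowest 2.002-fold for Serping1, 5.35-fold for C2 and 4.17-fold for Cfb. Fibroblast markers summed to 6907 and 2499 CPM in the libraries labelled fl/fl-MI-D42 1 and 2 and to 3556 and 5880 in CKO-MI-D42 1 and 2, and to 1530 to 1716 in sham libraries, and 9 of 10 of them rose with MI, against 22.0% of all tested genes. Aebp1, a matrix-associated gene, was the closest gene to C1ra, C2, C3 and Cfb, at root mean square differences of 0.24, 0.45, 0.36 and 0.30, and Pdpn the closest to C4b at 0.31. H6pd was the closest to Serping1 at 0.12. The macrophage marker Adgre1 was also among the 5 closest genes to C1ra, C4b and Cfb, at 0.30, 0.37 and 0.31. Over all genes compared the median difference was 0.62 for Serping1, 0.79 for C1ra, 0.88 for C4b, 0.90 for Cfb, 1.10 for C3 and 1.16 for C2. The parts of fibroblast and macrophage content in these values were not tested. The interaction of label and MI was called in edgeR for 0 of 9 genes and 0.0% of all tested genes, 1191 of which had an unadjusted p under 0.05, with values from -0.99 for Cfb to 0.41 for C3.

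The rest of the complement system was described from lists by role. Of 45 other complement genes listed, 5 were not analysed here and 25 were tested, of which 8 rose and 4 fell with MI, where 22.0% and 18.3% of all tested genes did, with a median log2 fold change of 0.64. In the classical pathway C1s1, the partner protease of C1r, rose by 0.78 ± 0.23 (adjusted p = 0.0305, edgeR), while C1rb was at 1.13 ± 0.39 (adjusted p = 0.0538). In the lectin pathway Masp1 rose by 1.22 and Colec12 by 1.17, Colec11 fell by 1.16 on the log2 scale (up to -0.02 under the other scalings, called in 5 of 6), and Fcna was at -0.16. The alternative pathway genes Cfd (adipsin) and Cfp (properdin) were at 1.13 ± 0.58 and 0.23 ± 0.22 and did not pass. Cfd was at 97.8 CPM in fl/fl-MI-D42 2 and at 7.34 to 28.7 elsewhere. C7, of the terminal pathway, rose by 1.88 ± 0.47 (adjusted p = 0.0177, edgeR), whereas Hc (C5), C6 and C8a were too low to be tested.

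Among receptors, C5ar1 rose by 0.74, Itgam by 1.28 and Itgb2 by 0.70, the latter pair forming complement receptor 3. Cd93 fell by 0.84 on the log2 scale, which turned to 0.29 on log2(TPM + 1), and C3ar1 was at 0.50 ± 0.29. Vsig4, the receptor of resident macrophages, stood at 34.2 CPM in fl/fl-MI-D42 2 and at 0.43 to 4.52 elsewhere. Regulators went both ways: clusterin (Clu) rose by 1.73 ± 0.38, while vitronectin (Vtn) fell by 1.86 and Cd46 fell by 1.998 on the log2 scale. Under the other scalings these reached -0.69 and -0.50, called in 6 of 6.

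**Figure D4:**
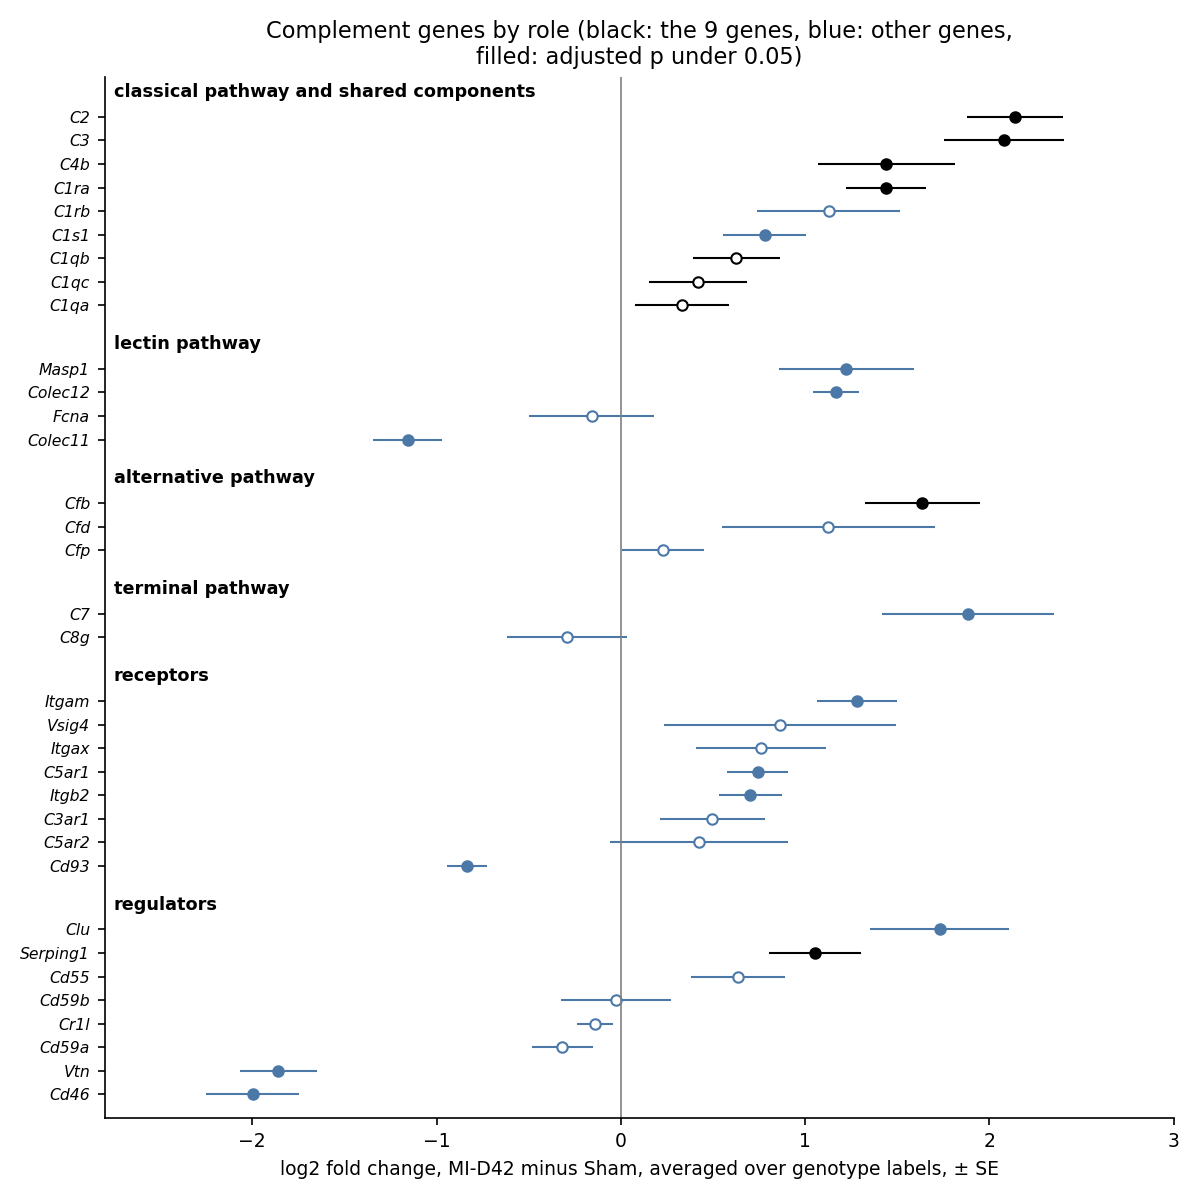
Points are log2 fold changes of MI-D42 against sham, averaged over the genotype labels, with standard errors, for the 34 tested complement genes grouped by role; black marks the 9 genes, blue the others, and filled points an adjusted p under 0.05. C2, C3, C7, Clu and Cfb lie furthest to the right and the C1q chains at 0.33 to 0.63. Colec11, Cd93, Vtn and Cd46 lie furthest to the left of 0.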

How the data were processed

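Myocardial RNA of 8 mouse libraries was sequenced and grouped by the deposited labels. The authors trimmed reads with cutadapt 1.9 and checked them with FastQC, per the submitters' processing notes; the aligner and counter are not given in the sources used here. The authors deposited, per gene and transcript, an estimated count, a whole number without normalization that behaves as about 4 units per read pair, and FPKM, scaled by length and library size. Identifiers matched GENCODE M21 for 99.7% of genes and coordinates for 90.8%.

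The 14028 genes averaging 0.5 FPKM or more were tested with edgeR 4.0.16 (R 4.3.3), TMM scaling and all 8 libraries in one fit; p-values were adjusted by Benjamini-Hochberg over these genes and called at 0.05. The SE is the log2 fold change divided by the root of F. Alternatives were DESeq2 1.42.0, limma 3.58.1 on log2(FPKM) or log2(TPM), other filters and scalings, a replicate block and each library left out. The edgeR test was tried on simulated counts that gave every gene the same spread, unlike these libraries, so it does not bear on their calls. Counts divided by 4 and TMM without mitochondrially encoded genes were chosen after seeing the data. For 1 gene, permuting 2 libraries against 2 allows no two-sided exact p under 0.33. The 9 genes, the gene lists, the motifs and the tests were chosen with earlier results of these data known. Named are the 9 genes, other tested complement genes, for each of the 9 the 5 genes closest in centred log2 CPM with a mean FPKM of at least 5, and Piezo1 and Esr1; Bmp10 and Alb were named after their values were seen. A complement gene that had been listed is not reported here and is in none of the list counts.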

Additional observations from a re-analysis of the deposited data

How the results depend on the processing

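With 2 libraries per group, counts of called genes moved with the libraries left out. For MI against sham averaged over the labels, 6 of 9 genes were called. All 9 were called with library totals alone and with log2(TPM + 1), where 52.2% and 76.7% of all tested genes rose. With TMM 22.0% did. With 1 library left out, log2 fold changes of the 6 ran from 0.77 for Serping1 without fl/fl-MI-D42 1 to 2.30 for C3 without CKO-MI-D42 1. C4b and Serping1 missed the threshold in some of these fits, and C1qb and C1qc passed in others, as given above. In the fl/fl libraries 4 were called. It was 7 with library totals alone, with log2(FPKM + 1) and with log2(FPKM + 0.1), and 9 with log2(TPM + 1). In these fits 38.5%, 34.2%, 35.5% and 65.7% of all genes rose. It was 1 with only the libraries compared (0.485%). In the CKO libraries 3 were called. It was 6 with library totals alone, with DESeq2 and with log2(FPKM + 0.1) (35.6%, 17.2% and 34.6%). It was 5 without a filter (5.68%) and 8 with log2(TPM + 1) (61.7%). Calls within labels with 1 library left out are given above for some of the libraries, with the shares of all genes, which also moved. Between labels in sham hearts 1 gene, C3, passed with only the libraries compared. After MI 1 gene, C2, passed in DESeq2, and 0 to 1 with 1 library left out. For the interaction 0 of the 9 genes were called under each alternative that gave it a value; over all tested genes it had 131 calls in DESeq2, 751 without fl/fl-MI-D42 1, 5 without fl/fl-MI-D42 2 and 1 without a filter. The cause of these shifts was not tested, apart from the shifts of the median gene given with the scalings. A mean FPKM of at least 5 leaves out C2.

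With the replicate block, C1ra and C3 missed the threshold in the fl/fl libraries (adjusted p = 0.0519 and 0.0622, edgeR). Their log2 fold changes were 1.39 and 1.89, against 1.39 and 1.87 without the block. Adjusted p also rose for C2, from 0.00751 to 0.0194, and for Cfb, from 0.0224 to 0.0428 (edgeR), which still passed. The genes called for MI against sham and in the CKO libraries stayed the same. Same-numbered libraries did not deviate together, with correlations of -0.23 to 0.05, so the numbers are not taken as pairs.

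Values changed sign when 1 library was left out. For MI against sham C1qa ranged from -0.0044 without CKO-MI-D42 2 to 0.53 without CKO-MI-D42 1. In the CKO libraries, over the same pair of settings, C1qa ranged from -0.45 to 0.61, C1qb from -0.12 to 0.78 and C1qc from -0.39 to 0.80. Between labels after MI the lowest values were those without CKO-MI-D42 2, -1.15 for C1qc, -1.13 for C3, -1.49 for C4b and -0.58 for Serping1. Without CKO-MI-D42 1 these were 0.039, 0.14, 0.12 and 0.20, and without fl/fl-MI-D42 1 C3, C4b and Serping1 were at 0.18, 0.0049 and 0.38.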
